A study of Mus musculus with 12 samples.

Results

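The transcripts of the constitutive proteasome were examined in the small intestine of mice in which Shp2 had been targeted in the epithelium. The members were the rows of the deposited array table whose gene symbol starts with PSMA to PSMG followed by a digit, apart from PSMB8 and PSMB9, which left 42 of 18090 rows. They comprised 15 core particle genes, 16 regulatory particle genes, 4 activators, 1 inhibitor, 5 assembly chaperones, and Psmc3ip, a meiotic recombination factor that shares the name pattern without being a proteasome subunit. The name "constitutive" did not suit Psmb10, Psme1 and Psme2, which are known as interferon-inducible; they count among the 42, but the class values below leave them out.

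RNA was profiled on 1-colour Illumina arrays in 6 villinCre;Shp2fl mutant mice and 6 control mice, all labelled P6 and of a mixed C57/BL6;129Ola background. In the mutants a villin promoter, active in intestinal epithelium, drives Cre recombinase to recombine floxed Ptpn11, which encodes the phosphatase Shp2, a relay of receptor signals; the genotype of the control mice and the allele count of the mutants were not given in the labels used here. Each sample was RNA from an entire segment of proximal small intestine, so that epithelium, muscle, stroma, blood and immune cells were read together. Samples are called biological replicates in the labels, and the design counts mice. Per-mouse values are deposited background-subtracted intensities in arbitrary units. Means carry their SD over 6 mice. Log2 differences are mutant minus control, fitted with limma (a linear model with moderated variances) on an offset log2 scale, with a standard error (SE) and a Benjamini-Hochberg adjusted p over all 18090 rows. A row was called at an adjusted p under 0.05.

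The proteasome degrades proteins tagged with ubiquitin. Its core particle is a barrel of alpha rings, which gate the entrance, and beta rings, of which Psmb5, Psmb6 and Psmb7 carry the proteolytic sites. The regulatory particle caps the barrel: ATPases of the Psmc family unfold the substrate, and Psmd subunits bind and remove ubiquitin. Activators of the Psme family can replace that cap, Psmf1 was described as an inhibitor of the core, and dedicated chaperones build the particle. Proteasome genes are known to be transcribed together, partly through the factor Nfe2l1 at antioxidant response elements, and interferon-gamma induces alternative beta subunits. The rapidly renewed intestinal epithelium has a large turnover of protein.

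Correlations between arrays of the same group were 0.983 to 0.994, those between arrays of different groups 0.973 to 0.987, and no pair of samples was identical. Ptpn11 itself was not lower in the mutants: it averaged 1498 ± 118 in mutants and 1288 ± 124 in controls, a log2 difference of 0.21 (SE 0.07, limma adjusted p = 0.0763). The position of its probe was not given, so this row does not check the genotype labels. Vil1, the epithelial protein villin, averaged 8714 ± 990 in mutants and 9101 ± 1121 in controls (log2 difference -0.06, limma adjusted p = 0.801). The epithelial marker of the labelled tissue was thus present in every mouse. Mutant 1 and control 4, and to a lesser degree mutant 2 and control 5, also held raised levels of most pancreatic acinar transcripts examined. The elastase row Ela2a was at 7043.9 and 382.1 in mutants 1 and 2, against 16839.6 and 1366.1 in controls 4 and 5, and at most 16.3 in the other 8 mice. Not every acinar marker followed this split. Clps was present in all mice, at 1845.6 to 9621.9 in mutants and 789.4 to 14384.2 in controls. Mutants 3, 5 and 6 (4766.1, 4054.1 and 3743.1) exceeded mutant 2 (2658.3) and control 5 (2854.5) in it.

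Of the 42 member rows, 4 were higher in the mutants at an adjusted p under 0.05: Psma7, Psmb3, Psmd7 and Psmg3. This was 9.52% of the members, where 4.71% of all 18090 rows were called higher, 4.48% lower and 9.19% in either direction. None was called lower by limma, and none was lower at an unadjusted p under 0.05 either. At that unadjusted level 16 members were higher (38.1%), against 10.4% of all rows. The groups did not overlap, with every mutant above every control, for 2 members, Psma7 and Psmg3, which was 4.76% of the members and 2.48% of all rows. The 4 mice high in Ela2a were also left out, an omission chosen after the data were seen that leaves 4 mice a group. Psmg3 alone of the members was then called (limma adjusted p = 0.0124). In that fit Psma7, Psmd7 and Psmb3 had log2 differences of 0.37, 0.37 and 0.17 with limma adjusted p of 0.0788, 0.110 and 0.242, and 1081 of all rows were called. The differences were small. Over the 42 members the log2 difference had a median of 0.10 and ran from -0.19 (Psmd8) to 0.57 (Psmg3), with 34 of them (81%) above 0, where the median over all rows was -0.01 and 47.3% were above 0. Because the tissue was read in bulk, more RNA per cell and a larger share of cells rich in these RNAs cannot be told apart.

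Not every member was measurable. Of the 42, 38 had a mean intensity above 27.8, the size of the most negative value in the table, which was taken as the noise limit. Psma1, Psma3, Psma6 and Psmc6 lay within it in every mouse, and Psma1, Psma3 and Psma6 were below 0 in all 12 mice. Psma1, Psma3 and Psma6 belong to every core particle and Psmc6 to the ATPases of the regulatory particle. Their rows were therefore read as rows at background and no level was drawn from them. They stay in the counts and the median over all 42 members. Of the 38 measurable members, 4 were called higher (10.5%), where 7.96% of the 9946 rows above the limit were. At an unadjusted p under 0.05, 16 of the 38 were higher, and 1614 of those 9946 rows. Every mutant was above every control in 2 of the 38, and in 408 of the 9946 rows. Among these 38, 32 differences (84.2%) were above 0, with a median of 0.11. Over the 9946 rows above the limit, 46.6% were above 0, with a median of -0.02. The members were read in the same 12 mice, so their signs are not independent observations. All 6 mutants exceeded the control mean in 13 of these 38 members (34.2%), and all 6 lay under it in 1 (2.63%, Psmd10). Over the 9946 rows above the limit these shares were 15% and 19.5%.

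**Figure D1:**
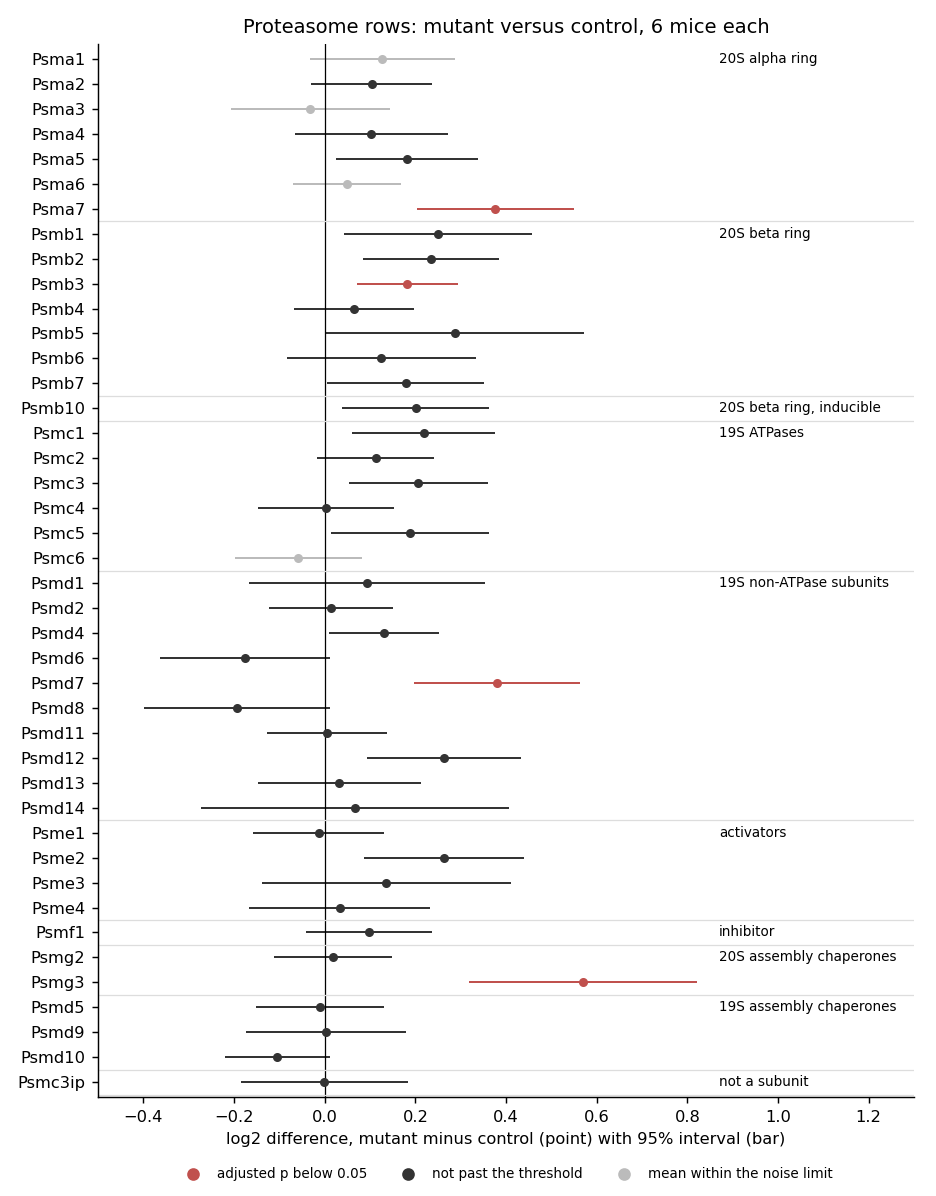
Log2 difference (mutant minus control) of each proteasome member with its 95% confidence interval, grouped by role, red where called, grey where the mean is within the noise limit and black otherwise. The differences lie between -0.19 and 0.57; 4 members are called higher and none lower.

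The windows around the annotated transcription starts of 3 called members and of the catalytic subunit Psmb5 are shown, since the called members moved in 1 direction and proteasome genes are known to share promoter elements. Each runs 5′ to 3′ from 250 bases before to 50 bases after the start (RefSeq, GRCm38.p6): Psma7 at chr2:180042415-180042714 on the minus strand, Psmb3 at chr11:97703184-97703483 on the plus strand, Psmg3 at chr5:139826845-139827144 on the minus strand and Psmb5 at chr14:54617946-54618245 on the minus strand. Capitals mark matches, on either strand, to CCAAT or to TGACNNNGC, the core of the antioxidant response element.
Psma7: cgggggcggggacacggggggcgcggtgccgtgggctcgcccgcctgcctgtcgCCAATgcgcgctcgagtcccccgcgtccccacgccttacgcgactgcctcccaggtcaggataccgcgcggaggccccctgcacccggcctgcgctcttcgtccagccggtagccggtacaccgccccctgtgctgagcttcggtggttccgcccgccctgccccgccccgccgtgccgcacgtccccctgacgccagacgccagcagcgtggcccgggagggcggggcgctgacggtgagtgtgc
Psmb3: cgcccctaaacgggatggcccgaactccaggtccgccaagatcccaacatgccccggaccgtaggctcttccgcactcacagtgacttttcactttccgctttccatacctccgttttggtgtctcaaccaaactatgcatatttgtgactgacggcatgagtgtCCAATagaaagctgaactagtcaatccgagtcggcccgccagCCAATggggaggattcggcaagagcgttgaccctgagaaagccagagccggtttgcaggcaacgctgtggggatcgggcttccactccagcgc
Psmg3: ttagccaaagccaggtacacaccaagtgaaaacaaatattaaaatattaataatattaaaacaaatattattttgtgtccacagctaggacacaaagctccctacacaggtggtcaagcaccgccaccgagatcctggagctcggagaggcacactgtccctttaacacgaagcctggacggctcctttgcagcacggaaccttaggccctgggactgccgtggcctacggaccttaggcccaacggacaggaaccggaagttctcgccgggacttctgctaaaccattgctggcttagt
Psmb5: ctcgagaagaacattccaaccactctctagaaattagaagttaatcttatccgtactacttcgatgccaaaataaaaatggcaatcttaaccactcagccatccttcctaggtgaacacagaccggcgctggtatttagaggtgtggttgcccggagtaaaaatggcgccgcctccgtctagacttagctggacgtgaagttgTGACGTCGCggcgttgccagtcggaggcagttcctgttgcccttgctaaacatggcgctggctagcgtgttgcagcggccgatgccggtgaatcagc
The window of Psma7 held 1 CCAAT, which starts 196 bases before the transcription start, and that of Psmb3 held 2, at 85 and 43 bases before it. The window of Psmg3 held neither motif. Psmb5 held 1 antioxidant response element core, 47 bases before the start. RefSeq windows were found for 36 of the 42 members, 39 windows in all, while Psmd7 was among the 6 without one. TGACNNNGC was present in 6 of the 39 windows (15.4%), those of Psmb5, Psmb6, Psmc6, Psmd9, Psmd12 and Psme4, compared with 12.4% of all 32851 windows of the table. None of these 6 genes was called, where 9.52% of the 42 members were, and the row of Psmc6 was at background. So few genes do not show whether calls go with the motif. CCAAT was present in 13 of the 39 windows (33.3%) and in 37.4% of all windows. TTCNNNGAA, the interferon-gamma activated site, was present in 1 of the 39 (2.56%, Psmd2) and in 8.3% of all windows. These are matches of letters and say nothing of binding.

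Of the 15 core particle rows, 11 were constitutive and above the noise limit. All 11 had a difference above 0, where 46.6% of the 9946 rows above the limit did, and their median log2 difference was 0.18. At an unadjusted p under 0.05, 7 of the 11 were higher, and 1614 of the 9946 rows above the limit. By adjusted p, 2 were called (18.2%, against 7.96% of all rows above the limit). Psma7, an alpha-ring subunit, showed no overlap between groups. Its intensity was 3966.2, 3695.1, 4390.5, 3499.4, 3934.4 and 3276.3 in mutants 1 to 6, against 3223.3, 2671.1, 2997.5, 3217.9, 2649.1 and 2595.9 in controls 1 to 6. The lowest mutant was mutant 6, and it still exceeded the highest control. Means were 3794 ± 392 in mutants and 2892 ± 291 in controls, 1.31-fold higher, with a log2 difference of 0.38 (SE 0.08, 95% interval 0.20 to 0.55, limma adjusted p = 0.00996).

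No other alpha-ring row was called. Psma5 was at 10520 ± 1040 in mutants and 9324 ± 784 in controls, with all 6 mutants above the control mean, and had a log2 difference of 0.18 that did not pass (limma adjusted p = 0.152). Psma2 and Psma4 had log2 differences of 0.10 each, with 5 of 6 mutants above the control mean. With Psma1, Psma3 and Psma6 at background, 4 of the 7 alpha subunits could be read.

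All 7 constitutive beta subunits were measurable and all 7 had a positive difference, from 0.06 (Psmb4) to 0.29 (Psmb5) on the log2 scale. Psmb3, a structural beta subunit, was the 1 called. Its intensity was 6410.9, 6573.2, 6445.9, 6919.6, 6430.2 and 6366.1 in mutants, against 6505.5, 5554.3, 5713.8, 5751.5, 5285.9 and 5396.2 in controls. Only control 1 reached into the mutant range; the other 5 controls lay below every mutant. The means were 6524 ± 206 in mutants and 5701 ± 433 in controls, 1.14-fold higher (log2 difference 0.18, SE 0.05, limma adjusted p = 0.0414). This call was lost under 17 of 22 alternative settings, including the omission of any single mouse other than control 1 and of control 4 with mutant 1 (adjusted p = 0.0855), while the difference stayed between 0.16 and 0.21.

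The 3 catalytic subunits were not called. Psmb5, which carries the chymotrypsin-like activity, was at 305.3, 440.7, 433.1, 629.9, 415.6 and 405.6 in mutants, against 368.9, 448.3, 353.7, 270.9, 322.9 and 278.1 in controls. Mutant 1 lay below the control mean and mutant 4 stood highest, and the groups overlapped (log2 difference 0.29, SE 0.13, limma adjusted p = 0.227). Psmb6, the caspase-like subunit, was at 4789.5, 4512.4, 5067.4, 6399.9, 4547.9 and 4993.5 in mutants, against 4554.8, 5244.1, 4575.1, 4312.4, 5128.4 and 3711.0 in controls. Apart from mutant 4, every mutant lay within the control range (log2 difference 0.12, SE 0.10, limma adjusted p = 0.535). Psmb7, the trypsin-like subunit, was at 2120.5, 2672.1, 2543.8, 2494.6, 2520.4 and 2221.0 in mutants, against 2353.8, 2319.7, 1993.4, 2344.7, 1996.2 and 1787.5 in controls. Mutants 2 to 5 were above every control, whereas mutants 1 and 6 were within the control range (log2 difference 0.18, SE 0.08, limma adjusted p = 0.214). The 95% intervals of the log2 difference were 0.00 to 0.57 for Psmb5, -0.08 to 0.33 for Psmb6 and 0.01 to 0.35 for Psmb7.

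Psmb2, a structural beta subunit chosen for mention after its values were seen, just missed the threshold. It was at 3736.8, 3916.7, 4333.4, 3852.3, 4049.2 and 3472.2 in mutants, against 3490.6, 3042.4, 3553.9, 3581.5, 3270.5 and 2890.7 in controls. The lowest mutant, mutant 6, was exceeded by controls 1, 3 and 4, and all 6 mutants were above the control mean (log2 difference 0.23, SE 0.07, limma adjusted p = 0.0522). It passed under 8 of the 22 alternatives, among them the omission of control 1 (adjusted p = 0.0484), control 4 (0.0456) or mutant 6 (0.0370). Psmb1 was at 4800 ± 401 in mutants and 4051 ± 659 in controls (log2 difference 0.25, SE 0.10, limma adjusted p = 0.137). Psmb4 differed least of the beta ring, by 0.06 (SE 0.06).

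**Figure D2:**
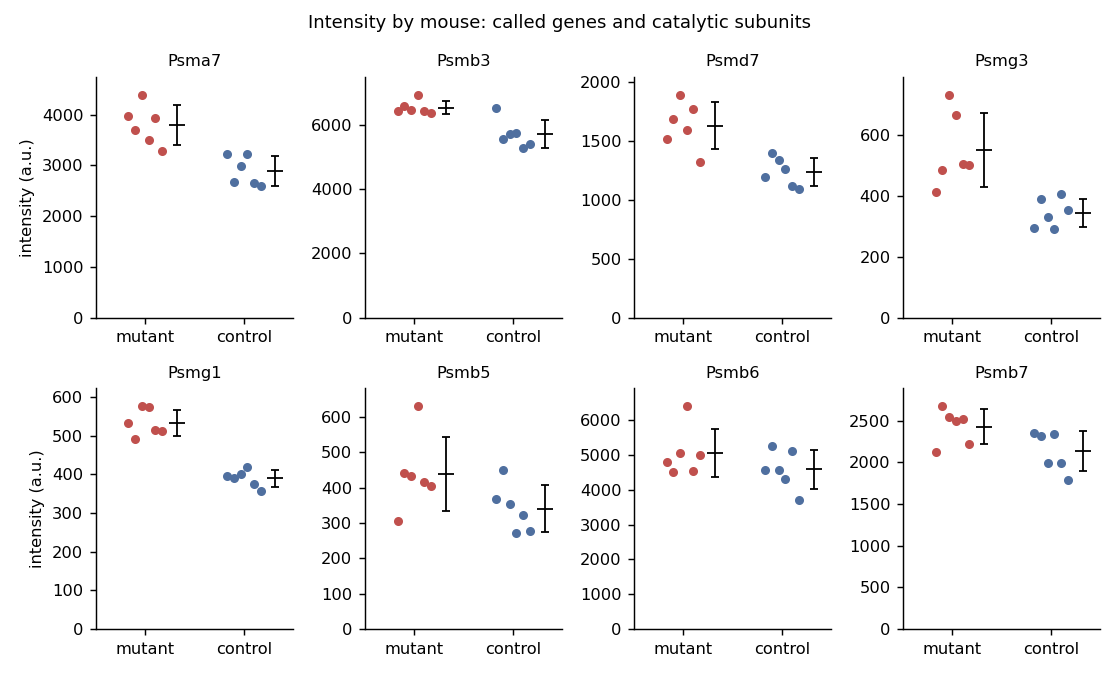
Deposited intensity (arbitrary units) of the called members, Psmg1 and the catalytic subunits in every mouse (points), mutants left and controls right, with the group mean and its SD as a black mark and bar (6 mice each). Mutants and controls do not overlap for Psma7, Psmg3 and Psmg1, and overlap through 1 mouse for Psmb3 (control 1) and Psmd7 (mutant 6); mutant 4 is the high point of Psmb5 and Psmb6.

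Of the 16 regulatory particle rows, 15 were above the noise limit. Of these, 13 had a difference above 0 (86.7%, against 46.6% of all rows above the limit), with a median log2 difference of 0.09. At an unadjusted p under 0.05, 6 of the 15 were higher, and 1614 of the 9946 rows above the limit. By adjusted p, 1 was called (6.67%, against 7.96% of all rows above the limit). Psmd7, a structural partner of the deubiquitinase in the lid, was the 1 called. Its intensity was 1516.1, 1680.1, 1888.3, 1587.2, 1765.8 and 1317.0 in mutants, against 1195.6, 1392.8, 1334.4, 1262.7, 1115.3 and 1093.5 in controls. All mutants but mutant 6 were above every control. Means were 1626 ± 200 in mutants and 1232 ± 120 in controls, 1.32-fold higher (log2 difference 0.38, SE 0.09, 95% interval 0.20 to 0.56, limma adjusted p = 0.0131).

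Psmd14, the deubiquitinase with which Psmd7 pairs, was not called. It was at 664.3, 836.0, 604.4, 1049.4, 626.0 and 677.5 in mutants, against 935.8, 923.1, 644.8, 481.6, 755.1 and 568.7 in controls. The mice of each group were spread widely and 2 of 6 mutants exceeded the control mean. Its log2 difference was 0.07 (SE 0.16, 95% interval -0.27 to 0.41, limma adjusted p = 0.876), an interval that includes the estimate for Psmd7. Its within-group SD of 0.31 on the log2 scale was the widest of the members above the noise limit, whose median was 0.14, against 0.17 over all rows above that limit. The difference between the paired subunits was not tested.

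Psmd12, a scaffold of the lid chosen for mention after its values were seen, was at 878.8, 974.4, 944.5, 911.5, 859.2 and 722.6 in mutants, against 860.7, 695.7, 691.2, 778.0, 709.9 and 636.7 in controls. Mutants 5 and 6 fell below control 1, and the other mutants were above every control (log2 difference 0.26, SE 0.08, limma adjusted p = 0.0537). It passed under 6 of the 22 alternatives, among them the omission of control 1 (adjusted p = 0.0231) or mutant 6 (0.0188). The ubiquitin receptor Psmd4 was at 6568 ± 440 in mutants and 5917 ± 330 in controls, with all 6 mutants above the control mean (log2 difference 0.13, limma adjusted p = 0.186). Psmd8 and Psmd6 had the most negative differences among all members, -0.19 (SE 0.10) and -0.18 (SE 0.09), with limma adjusted p of 0.263 and 0.264. Psmd6 was close to the noise limit, at 37.5 ± 11.9 in mutants and 52.0 ± 14.7 in controls. Mutants 1 and 3 (27.1 and 23.9) lay under that limit, and the ratio of means was 0.72 where the fit gave 0.885. The remaining Psmd rows, Psmd1, Psmd2, Psmd11 and Psmd13, had log2 differences between 0.00 and 0.09, and Psmd2, at 41.3 ± 7.9 in mutants and 40.7 ± 7.9 in controls, was little above the noise limit.

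None of the 6 ATPases was called, and 3 of them, Psmc1, Psmc3 and Psmc5, were higher at an unadjusted p under 0.05. Psmc1 had the largest difference of the ring. It was at 1183.1, 1589.7, 1523.0, 1449.3, 1526.5 and 1381.2 in mutants, against 1268.6, 1246.2, 1319.7, 1140.0, 1300.3 and 1093.8 in controls. Mutant 1 alone was within the control range, and every other mutant was above every control (log2 difference 0.22, SE 0.07, limma adjusted p = 0.0827). It passed without mutant 1 (adjusted p = 0.0214) and without mutant 1 and control 4 together (0.0403), but not when mutant 2 and control 5 were left out as well (0.0996). Psmc3 and Psmc5 had log2 differences of 0.21 and 0.19, with all 6 mutants above the control mean in both. Psmc4 was level between groups, at 3653 ± 356 in mutants and 3634 ± 282 in controls.

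Of the activators and the inhibitor none was called. Psme1 and Psme2 together form an interferon-inducible activator. Psme2 was at 950.3, 1078.7, 853.5, 1148.0, 927.2 and 1052.5 in mutants, against 907.0, 673.3, 829.1, 823.0, 806.6 and 918.1 in controls. Mutant 3 was exceeded by controls 1 and 6, and every other mutant was above every control (log2 difference 0.26, SE 0.08, limma adjusted p = 0.0614). It passed without mutant 3 (adjusted p = 0.0431) and with array weights (0.0438), and in no other alternative.

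Psme1 was at 7680.2, 7431.6, 6932.9, 7931.3, 7881.5 and 6887.6 in mutants, against 7325.2, 6853.0, 8681.2, 6990.2, 7699.5 and 8229.5 in controls. Its groups overlapped over nearly their whole range (log2 difference -0.01, SE 0.07, 95% interval -0.16 to 0.13, limma adjusted p = 0.952). The nuclear activators Psme3 and Psme4 had log2 differences of 0.14 (SE 0.13) and 0.03 (SE 0.09). Psmf1, the inhibitor, was at 563.9, 640.6, 651.1, 655.7, 652.0 and 554.7 in mutants, against 548.3, 525.5, 633.8, 640.0, 572.7 and 550.0 in controls. The groups overlapped, with mutants 1 and 6 below the control mean (log2 difference 0.10, SE 0.06, limma adjusted p = 0.445).

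Psmb10, an inducible catalytic beta subunit that replaces Psmb7, was at 5149.4, 4310.7, 4780.6, 5151.6, 5004.8 and 4628.6 in mutants, against 3404.7, 4025.9, 4311.5, 4015.9, 4630.5 and 4617.3 in controls. All mutants were above the control mean, though mutant 2 was lower than controls 3, 5 and 6 (log2 difference 0.20, SE 0.08, limma adjusted p = 0.126). The other inducible catalytic subunits, outside the member rows, were not called and differed in sign. Psmb8 averaged 373.9 ± 82.1 in mutants and 286.0 ± 36.0 in controls (log2 difference 0.31, SE 0.11, limma adjusted p = 0.122; 0.0383 without mutant 3). Psmb9 averaged 851.8 ± 412.0 in mutants and 1633 ± 673 in controls (log2 difference -1.07, SE 0.49, limma adjusted p = 0.218). In Psmb9 mutant 5 read 56.5, far under the other mutants at 852.1 to 1245.2, and controls ran from 751.1 to 2564.4; without mutant 5 the log2 difference was -0.56 (limma adjusted p = 0.226). Of 9 genes of interferon-gamma signalling and antigen presentation above the noise limit, none was called by limma, with 1 lower and 0 higher at an unadjusted p under 0.05. At that level, 1817 of the 9946 rows above the limit were lower and 1614 higher.

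**Figure D3:**
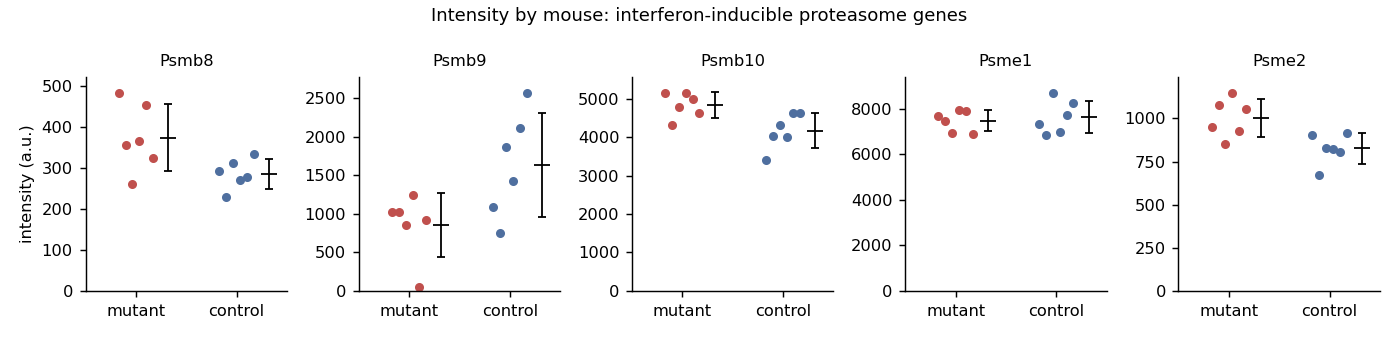
Deposited intensity (arbitrary units) of the interferon-inducible Psmb10, Psme1 and Psme2, with Psmb8 and Psmb9, in every mouse (points), mutants left and controls right, with the group mean and its SD as a black mark and bar. None of the 5 is called; Psmb9 has the widest spread, with mutant 5 at 56.5.

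Among assembly chaperones, those of the core particle held the largest difference of all members. Psmg3, which with a partner guides assembly of the alpha ring, was at 412.6, 484.7, 730.7, 664.0, 505.0 and 499.7 in mutants, against 294.5, 387.7, 329.4, 290.9, 404.0 and 351.8 in controls. The groups did not overlap, although mutant 1 exceeded control 5 only narrowly. Means were 549.4 ± 121.1 in mutants and 343.0 ± 47.0 in controls, 1.60-fold higher as a ratio of means and 1.48-fold in the fit, whose offset shrinks the differences of dim rows (log2 difference 0.57, SE 0.12, 95% interval 0.32 to 0.82, limma adjusted p = 0.00761). Psmg2, the partner of Psmg1 in another chaperone pair, was at 468.2 ± 27.9 in mutants and 460.4 ± 41.6 in controls (log2 difference 0.02, limma adjusted p = 0.919).

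Psmg1 is listed in the table under the older symbol Dscr2 and so is not among the 42 members. It was at 531.6, 491.8, 576.1, 573.3, 515.7 and 511.0 in mutants, against 395.1, 391.1, 400.0, 419.1, 374.1 and 356.9 in controls. The groups did not overlap and lay well apart. Means were 533.2 ± 34.5 in mutants and 389.4 ± 21.5 in controls, 1.37-fold higher (log2 difference 0.39, SE 0.05, limma adjusted p = 0.000529), and the call held in all 22 alternatives. Pomp, the maturation factor of the core particle, was at 8677 ± 434 in mutants and 8920 ± 548 in controls (log2 difference -0.04, limma adjusted p = 0.786).

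None of the 3 chaperones of the regulatory particle was called. Psmd10, known as gankyrin, was at 1097.6, 1055.6, 972.7, 1124.5, 1115.8 and 1093.0 in mutants, against 1265.1, 1195.6, 1113.6, 1081.2, 1236.3 and 1104.9 in controls. No mutant reached the control mean, yet the groups overlapped (log2 difference -0.10, SE 0.05, 95% interval -0.22 to 0.01, limma adjusted p = 0.294). Psmd5 and Psmd9 had log2 differences of -0.01 (SE 0.07) and 0.00 (SE 0.08). Psmc3ip, the recombination factor matched by name, was at 281.1, 259.4, 318.0, 296.5, 264.9 and 286.6 in mutants, against 299.3, 301.9, 231.7, 345.9, 316.5 and 220.9 in controls. The controls enclosed all mutants (log2 difference 0.00, SE 0.09).

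Averaged over the constitutive rows above the noise limit, after each row was centred on its mean over the 12 mice, the log2 deviation gives 1 value per mouse and is described here with no test. For the 11 core particle rows it was 0.01, 0.12, 0.15, 0.16, 0.12 and 0.01 in mutants, against 0.04, -0.09, -0.04, -0.11, -0.14 and -0.23 in controls. The groups overlapped through control 1, which lay above mutants 1 and 6; the other 5 controls were below every mutant. For the 15 regulatory particle rows it ran from -0.04 (mutant 1) to 0.16 (mutant 4) in mutants and from -0.18 (control 6) to 0.08 (control 2) in controls, so that the groups overlapped. For Psme3, Psme4 and Psmf1 it ran from -0.06 to 0.18 in mutants and from -0.15 to 0.08 in controls, again with overlap. Over all 35 such rows, Psmc3ip among them, the means were 0.06 ± 0.07 in mutants and -0.06 ± 0.07 in controls.

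A few mice held many of the extremes. Of the 38 measurable members, mutant 4 had the highest of the 12 values in 12 and mutant 3 in 9, while control 6 had the lowest in 15. Mutant 1 and mutant 6, by contrast, had the highest value in 1 and 0 of the 38. Such counts were not made over the other rows, so whether these mice are extreme only in the members was not tested. The median difference over the members was 0.08 without mutant 4 and 0.09 without control 6.

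**Figure D4:**
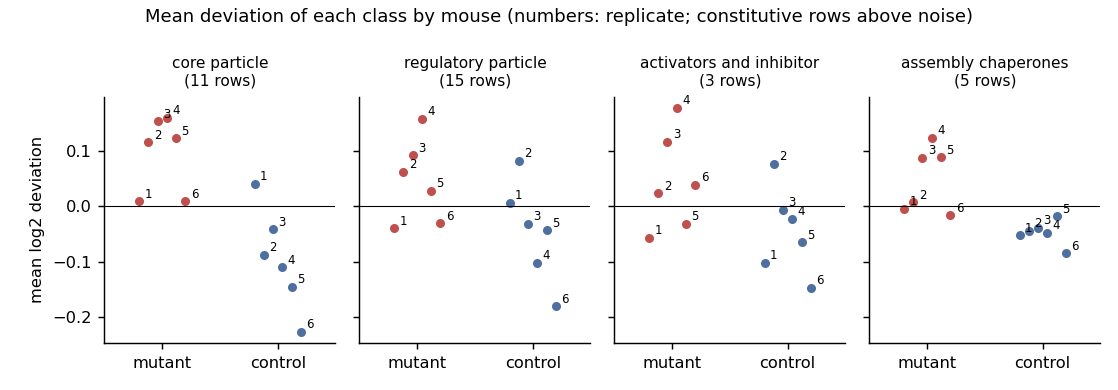
Mean log2 deviation of the constitutive rows above the noise limit of each proteasome class from their mean over 12 mice, 1 point per mouse with its replicate number, mutants left and controls right. Control 1 lies above mutants 1 and 6 for the core particle, and the groups overlap for the regulatory particle and for the activators and inhibitor. For the 5 assembly chaperone rows the lowest mutant, at -0.016, is barely above the highest control, at -0.018. Psmg3 is the 1 called row of these 5, and their median log2 difference is 0.0025.

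Other genes of the pathway, which the name rule does not reach or leaves out, were examined in 7 lists. Of 57 listed genes, 47 had a row, 40 of them above the noise limit; 1 was called higher (Psmg1) and 2 lower, 6.38% of the 47 where 9.19% of all rows were called, with a median log2 difference of -0.05. Among 9 subunits and associated factors named otherwise and above the noise limit, 1 was called. Zfand2a, a proteasome-associated protein induced by arsenite stress, was at 843.4 ± 113.9 in mutants and 1278 ± 179 in controls, a log2 difference of -0.55 (SE 0.10, limma adjusted p = 0.00407) that held in all 22 alternatives. The ubiquitin receptor Adrm1 was at 1089 ± 89 in mutants and 950.9 ± 117.6 in controls (log2 difference 0.19, limma adjusted p = 0.195), and the deubiquitinase Usp14 had a log2 difference of 0.13 (limma adjusted p = 0.560).

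Of 8 transcriptional regulators of proteasome genes above the noise limit, 1 was called and 5 had a negative difference. Mafg, a small Maf protein that pairs with Nfe2l1 and Nfe2l2 on antioxidant response elements, was at 1500 ± 237 in mutants and 2080 ± 392 in controls (log2 difference -0.45, SE 0.13, limma adjusted p = 0.0421). This call was lost under 10 of the 22 alternatives, with limma adjusted p between 0.0103 and 0.103, and without the 4 mice high in Ela2a (0.0558). Among the omissions of 1 mouse it was lost without control 1, 3, 5 or 6 and without mutant 1, 2, 3 or 4. Nfe2l1 was at 1571 ± 244 in mutants and 1748 ± 251 in controls (log2 difference -0.14, limma adjusted p = 0.524), and Nfe2l2 had a log2 difference of -0.07 (limma adjusted p = 0.868). None of 3 ubiquitin genes and none of 8 shuttle factors above the noise limit was called by limma. At an unadjusted p under 0.05, 1 of the 3 and 2 of the 8 were higher and none lower. Of the 9946 rows above the limit, 1614 were higher and 1817 lower at that level.

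Some marker rows of several cell types were also called, and their part in the proteasome differences was not tested. Of all 18090 rows, 4.71% were called higher and 4.48% lower, and 47.3% had a difference above 0. Every mutant was above every control in 449 of all rows, and below every control in 400. Of 13 marker rows of intestinal epithelium, 3 were called higher (Krt19, Cdx1 and Anpep) and none lower, 8 had a positive and 5 a negative difference, and Fabp1 and Fabp2 were within the noise limit. Their summed intensity was 55510 to 59799 in mutants and 42171 to 54541 in controls, without overlap. Without Anpep the sums were 38485 to 44514 in mutants and 35751 to 43246 in controls, which overlapped. The 8 erythroid markers summed to 10739 to 20393 in mutants and 20811 to 32387 in controls, without overlap, with 3 called lower (Hba-a1, Hbb-b2 and Ahsp). Hba-a1 made up most of these sums, at 15502 ± 3021 in mutants and 23508 ± 3798 in controls. It was the 1 erythroid row whose groups did not overlap. The 10 neutrophil markers summed to 3139 to 11163 in mutants and 329.7 to 461.8 in controls. Of these 10, 5 were called higher (S100a8, S100a9, Ltf, Camp and Retnlg), while Mpo, Elane, Csf3r and Cxcr2 were within the noise limit. S100a8 and S100a9 made up most of the mutant sums. S100a8 was at 5650 ± 2325 in mutants and 131 ± 42 in controls, and S100a9 at 1428 ± 642 and 31.4 ± 13.7. Of 8 smooth muscle markers 1 was called higher, with sums of 34105 to 47715 in mutants and 25501 to 39598 in controls. Of 11 general leukocyte markers 1 was called lower, with sums of 10055 to 11328 in mutants and 8545 to 11514 in controls. The 12 pancreatic acinar markers, none of them called, summed to 2178 to 51260 in mutants and 1221 to 88046 in controls. Of the rest, 1 of 8 stromal markers was called higher (Lum), 1 of 7 markers of enteric neurons and glia lower (S100b), and 2 of 5 endothelial markers lower (Tek and Emcn). The 1 called row was 12.5% of the smooth muscle list, 12.5% of the stromal list and 9.09% of the leukocyte list. Differences were above 0 in 8 of 8 smooth muscle, 10 of 10 neutrophil, 6 of 11 leukocyte and 5 of 8 stromal rows. They were above 0 in 4 of 7 enteric neuron and glia, 2 of 12 acinar, 1 of 8 erythroid and 0 of 5 endothelial rows.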

How the data were processed

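Total RNA of 12 samples was labelled as biotin cRNA with the Ambion Illumina TotalPrep kit, per the labels' protocols. GenomeStudio and Partek were used, per the submitters' processing notes, which give no version or role. The values deposited by the authors were linear intensity values, 1 per gene symbol and sample; 22.5% of them were below 0 and column medians were 41.8 to 43.4, so background had been subtracted and arrays made alike. No source used here gives the array version, the probe positions or how probes were averaged. In another table, 24 columns of values matched no sample label and were left aside.

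Groups and numbers came from the sample titles. The intensities were passed through normexp (offset 50) and quantile normalization, put on the log2 scale, and fitted by group with limma 3.58.1 (R 4.3.3), two-sided, with Benjamini-Hochberg adjustment over all 18090 rows. Non-normalized signals with detection p-values had been assumed in the design; because the usable values were normalized already, all rows were kept. Quantile normalization hides a shift of all genes together, and the number of mice limits the precision.

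The members and lists were chosen with earlier results of these data known. Named were the called members, the largest difference of each role, the catalytic and interferon-inducible subunits, Psmd14, Psmf1, and set genes of other lists. Symbols of rows were matched exactly. A gene named by that rule is not reported here. Same-numbered samples of both groups deviated together at correlations of -0.11 to 0.27, so the numbers were not taken as pairs. The 22 alternatives changed the background step, normalization, filter, variance model, weights or block, or left out mice; 1 further omission of 4 mice was chosen after seeing the data.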

Additional observations from a re-analysis of the deposited data

Results flagged for a closer look

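In 58 groups of 6 mice (28 named genes and the mean deviation of the members, in mutants and in controls), the gap between the farthest mouse and its nearest neighbour was set against the range of the group. In 6 groups it exceeded Dixon's 95% critical value for 6 values, where chance alone picks out about 1 in 20 groups. Among the members, both cases were mutant 4. Its Psmb3 intensity was 6919.6, with the next mutant at 6573.2, and its Psmb6 intensity was 6399.9, with the next mutant at 5067.4. Without mutant 4 the limma adjusted p of Psmb3 was 0.0777, and Psmb6 was called neither with nor without it. Among other genes of the pathway, Psmb9 was 56.5 in mutant 5 (next mutant 852.1) and Adrm1 was 918.1 in mutant 1 (next mutant 1086.8). In controls, Usp14 was 41.1 in control 6 (next control 88.0) and Zfand2a was 947.3 in control 2 (next control 1264.5). Zfand2a remained called without control 2, and Psmb9, Adrm1 and Usp14 were called neither with nor without the mouse that stood apart.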

How the results depend on the processing

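Psma7, Psmd7 and Psmg3 were called higher under 22 alternatives, with adjusted p of at most 0.0269, 0.0347 and 0.0285 by limma. The number of members called higher was 3 to 7, against 4 as reported, and no member was called lower under any of them; the median log2 difference of the members was 0.08 to 0.12. Over the 22 alternatives, 2.89% to 8.92% of the rows fitted were called higher, against 4.71% as reported. With array weights 7 members were called, with Psmb2, Psmd12 and Psme2 added. In that fit 1862 of all rows were called (10.3%), 5.33% of all rows being higher. Without background correction and with a floor at the noise limit, 1004 of all rows were called, against 1663 as reported. Leaving out 1 mouse at a time gave 3 to 6 members and 1247 to 1694 of all rows. With dim rows left out, 38 members were fitted and 5 called, all higher, while 8.92% of rows were called higher. Leaving out control 4 and mutant 1 gave 4 members, with Psmb3 lost and Psmc1 gained, and 1393 rows. Leaving out mutants 1 and 2 and controls 4 and 5, chosen after seeing the data, gave instead 1 member (Psmg3) and 1081 rows, with 4 mice a group and a median log2 difference of 0.11. With the replicate block, 6 members and 1702 rows were called: Psmb3 was lost (adjusted p = 0.0818), and Psmb2, Psmc3 and Psmd12 were added. The labels do not say that same-numbered mice were paired. Correlations of their deviations were 0.05, -0.01, 0.27, -0.11, -0.09 and 0.27, and mutants 3 and 6 alone correlated best with their own number. Whether some of them share a litter or an array batch cannot be told from the labels. The causes of these shifts were not tested. Rows with a mean within the noise limit give no level, which leaves 4 members unread.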
